A study of Mus musculus with 12 samples.

Results

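Some stretches of the mouse genome gave small RNA counts in the vesicles of certain groups and none in those of others. Of 1531 predicted small RNA loci in the count table, 311 were chosen by their raw counts. A locus was taken when its raw counts summed to at least 10 over the 12 libraries and stood at 0 in all 3 libraries of at least 1 group. They were 25.96% of the 1198 predicted loci that reached this total, and the other 887 had a count in every group. Because the counts chose the loci, their absence from a group is a description here and carries no test.

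By the design text the libraries were made with a small RNA kit from extracellular vesicles, the membrane particles that cells release, from bone marrow mesenchymal stem cells of C57BL/6 mice kept under specific pathogen-free conditions. All 12 samples carry the same treatment label, an antigen intervention, and by their titles replicates A, B and C belong to each of PLL, NY, aFM and DZ. By the design text, cells met ESPs, HCF or pLL, antigens of the hydatid parasite, at 2 µg/ml during 48 h; PLL carries the name of the last, and the labels neither say what DZ, aFM and NY stand for nor which group, if any, was unstimulated. The labels do not tell whether replicates were separate cultures or animals; p-values therefore reflect the spread among libraries, which could be technical. The extraction protocol in the labels speaks instead of mRNA-seq libraries; the sources used here do not settle this, and the table itself lists miRNA and predicted small RNA names. In bulk vesicle RNA, fewer vesicles carrying an RNA and less of it per vesicle cannot be told apart.

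A miRNA is cut from a hairpin-shaped transcript, first by Drosha in the nucleus and then by Dicer in the cytoplasm, and its mature strand guides an Argonaute protein to messenger RNAs. Programs that search small RNA reads for new miRNAs report places where reads stack as such a hairpin would release them. Candidates of this kind can also come from fragments of transfer RNA, ribosomal RNA, small nucleolar RNA or repeats, so a predicted locus is not an established miRNA. Each locus in the table carries a chromosome and a number as its name, such as chr4_55051. The numbers ran from 305 to 86830 with no duplicate, and the number ranges of the chromosomes did not overlap. The name is not a coordinate, so the loci were not placed against genes, and their sequences were not used here.

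Total counts per library ran from 68647 to 214303, and predicted loci held 39.3% to 89.7% of them. Replicates were closest in NY and aFM, where the chi-square statistic per degree of freedom between pairs ran from 3.47 to 13.5. Between DZ libraries it was at least 68.9, and between PLL A and the other PLL libraries it was 43.8 and 24.7, so DZ and PLL A stood apart from the rest in replicate agreement. A group's counts at predicted loci were 164761 in PLL, 311422 in NY, 317766 in DZ and 455475 in aFM. A count of 0 over a whole group allows up to 3 counts, or 7.46, 4.94, 6.74 and 12.03 CPM in DZ, aFM, NY and PLL. CPM is a count per library size in parts of 1e6, with library sizes scaled by the trimmed mean of M-values (TMM) over the rows that passed a filter on low counts. Reads carried no molecular identifier and are not independent molecules, so limits and intervals hold counting error alone. Fold values depend on this scaling: with annotated miRNA counts as the library size, every ratio of PLL to DZ, aFM or NY is 3.3, 3.83 or 2.37 times lower, and every ratio of NY to DZ or aFM is 1.39 or 1.62 times lower.

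The 311 loci held 19363 counts, 1.21% of all counts in the table. Their totals ran from 10 to 1127 with a median of 21, against a median of 240 for the 887 other predicted loci. Totals of 10 to 19 were held by 147 of them and totals over 100 by 38. The 10 most abundant loci held 38.2% of the counts of all 311. Their share of a library's counts ran from 0.354% to 0.656% over the DZ libraries and from 0.902% to 1.00% over aFM. It ran from 1.24% to 1.41% over NY and from 1.61% to 2.91% over PLL. Within the counts at predicted loci alone, they took 4.10%, 4.11% and 3.98% in PLL A, B and C, although predicted loci as a whole took 39.3%, 70.8% and 58.4% of these libraries. These shares are descriptions, since the rule chose the loci on these counts.

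Counts were missing from 1 group for 143 loci, from 2 groups for 84 and from 3 groups for 84. PLL lacked 159 of the loci, NY 154, DZ 147 and aFM 103. The largest set, 69 loci, held counts in DZ, aFM and NY and none in PLL, the group with the fewest counts at predicted loci. Next came 39 loci with counts in PLL alone and 34 in aFM alone. NY alone held 10, and DZ alone held 1, namely chr4_56630 with 11 counts, all of them in DZ A. The counts in 1 group alone moved with single libraries: without aFM A, 20 loci were specific to aFM, without NY C, 6 to NY, and without PLL B, 19 to PLL. DZ alone held 0 without DZ A, 3 without aFM A or NY B and 2 without NY A.

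**Figure D1:**
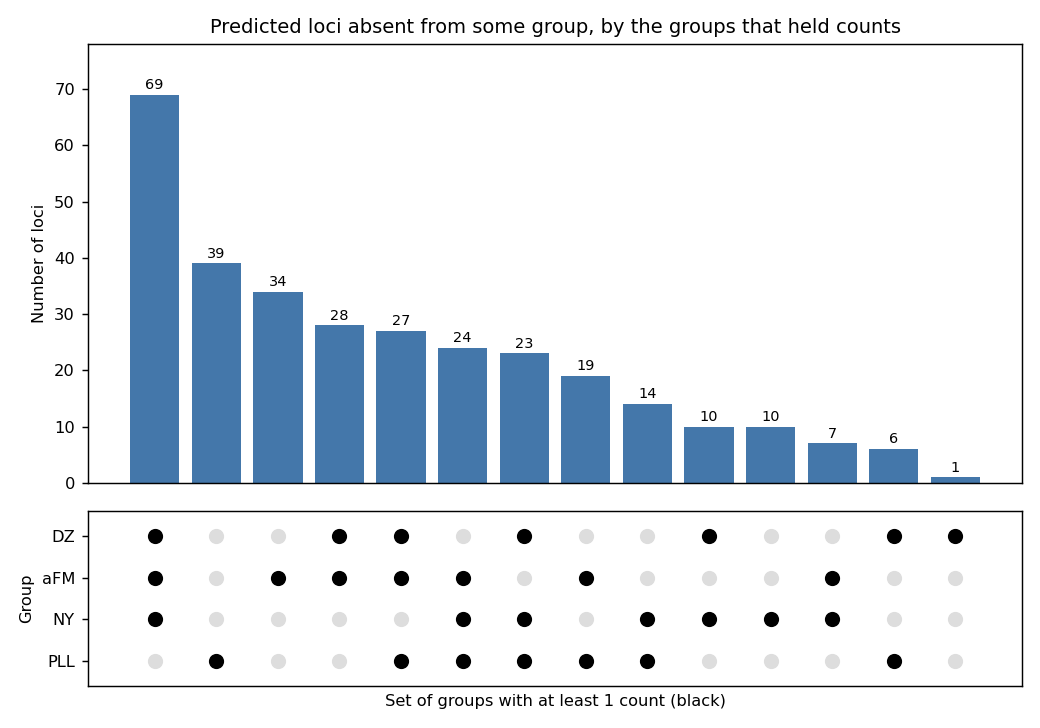
Number of predicted loci (bars, vertical axis in loci) for each set of groups that held at least 1 count, with black dots marking the groups of the set. The set of DZ, aFM and NY held 69 loci, PLL alone 39, aFM alone 34 and DZ alone 1.

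How many counts an absent group would have held depends on its depth. At the mean share of all counts that a locus had in the groups where it was present, the absent group would have held at least 3 counts for 292 of the 311 loci. PLL fell short of 3 for 19 of its 159 absent loci, and DZ, aFM and NY for 0 of theirs. The median of this expected count was 7.24 for loci absent from PLL, 15.2 from DZ, 15.3 from NY and 22.2 from aFM. All counts include annotated miRNAs. Predicted loci held 164761 of 289164 counts in PLL, 311422 of 404909 in NY, 317766 of 378427 in DZ and 455475 of 534537 in aFM. On counts at predicted loci alone, the expected counts for loci absent from PLL would be lower, and more than 19 could fall under 3. That scale was not computed.

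Loci found in PLL alone were led by chr5_62974, the most abundant locus of any single group. It had 173, 350 and 185 counts in PLL A, B and C and 0 in the other 9 libraries. Scaled to library size with TMM it stood at 2887 ± 167 CPM (SD, n = 3). The small SD depended on this scaling. Total counts were 99543, 120974 and 68647 in PLL A, B and C, and the TMM factors were 0.599, 1.07 and 0.885. PLL was at least 380-fold higher than DZ, at least 575-fold higher than aFM and at least 421-fold higher than NY, taking 3 counts over a group as the limit. When libraries were scaled by their annotated miRNA counts instead, the bounds were 115, 150 and 177. The next loci were far lower: chr4_56741 had 18, 36 and 24 counts and chr14_25536 had 13, 36 and 11. Of the 39 loci, 32 had a count in all 3 PLL libraries, and the median total was 18.

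In aFM alone, 4 loci exceeded 200 counts. chr18_37768 had 70, 87 and 113 counts in aFM A, B and C, and chr10_9543 had 67, 102 and 82. The counts of chr13_22723 were 93, 73 and 66, or 382 ± 5.26 CPM (SD, n = 3), and those of chr5_63224 were 81, 70 and 59, or 347 ± 18.7 CPM. All 4 stood at 0 in the 9 libraries of DZ, NY and PLL. Set against 3 counts over a group, chr18_37768 was at least 59.5-fold higher in aFM than in DZ, 65.9-fold than in NY and 36.9-fold than in PLL. A count in every aFM library was found for 29 of the 34 loci.

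The loci of NY alone were fewer. chr10_7738 had 58, 48 and 113 counts in NY A, B and C, and chr2_45497 had 55, 21 and 53, with 0 in every other library. chrX_84817, with 13, 19 and 20 counts, was the third by total. Of the 10 loci, 7 had a count in all 3 NY libraries.

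The most abundant loci of all were high in NY and PLL together and at 0 in aFM. chr4_55051 had 248, 130 and 282 counts in NY A, B and C and 105, 256 and 102 in PLL, against 3, 0 and 1 in DZ. chr13_22045 had 133, 151 and 159 in NY and 122, 239 and 99 in PLL, against 1, 0 and 0 in DZ. chr1_2036 had 142, 105 and 164 in NY and 90, 186 and 91 in PLL, against 2, 1 and 0 in DZ. In all 3 loci the lowest NY or PLL library lay above the highest DZ library, and no aFM library had a count. In CPM, chr1_2036 stood at 922 ± 31.7 in NY and 1483 ± 36.2 in PLL (SD, n = 3), where the small SD in PLL again depended on the TMM factors. chr4_55051 was at least 301-fold higher in NY and at least 376-fold higher in PLL than in aFM, and with annotated miRNA counts as the scale these bounds were 186 and 98.1. Of the 23 loci present in DZ, NY and PLL, which held 4273 counts together, no locus had a count in every library of all 3 groups.

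**Figure D2:**
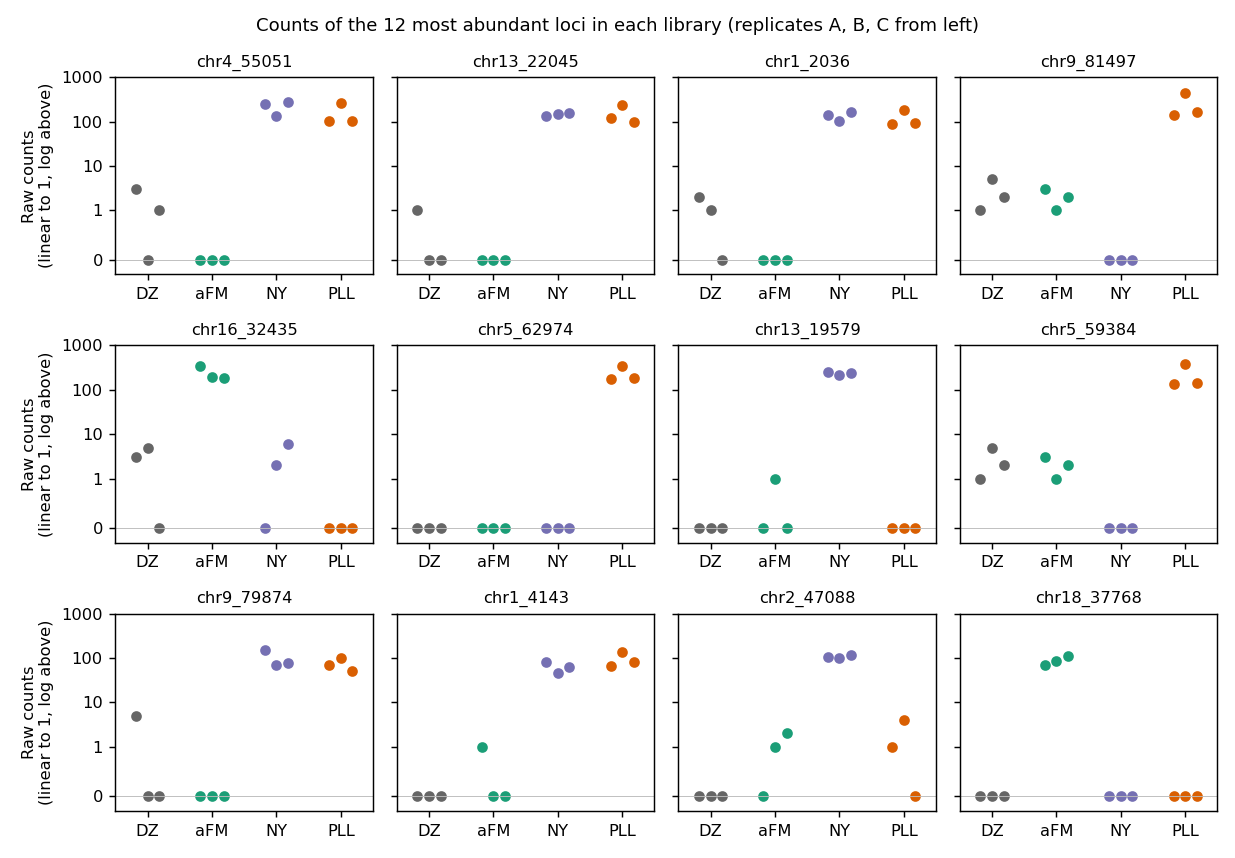
Raw counts (vertical axis, linear up to 1 and logarithmic above) of the 12 most abundant loci in the 3 libraries of each group, 1 point per library. chr5_62974 has counts in PLL alone and chr18_37768 in aFM alone, while chr4_55051, chr13_22045 and chr1_2036 reach 90 or more in every NY and PLL library and 3 or fewer in every DZ library.

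Counts in DZ, aFM and PLL with none in NY were held by 27 loci. In the 2 most abundant of them, a few counts in DZ and aFM stood beside high counts in PLL. chr9_81497 had 142, 445 and 162 counts in PLL A, B and C, and chr5_59384 had 135, 378 and 140. Outside PLL these 2 loci had the same counts: 1, 5 and 2 in DZ, 3, 1 and 2 in aFM and 0 in NY. PLL was at least 445-fold higher than NY for chr9_81497 and at least 388-fold for chr5_59384, or 188 and 164 with annotated miRNA counts as the scale. The third locus of this set, chr18_39391, ran the other way, with 14, 9 and 19 counts in DZ, 26, 58 and 19 in aFM and 2, 0 and 4 in PLL.

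Loci absent from PLL but present in the other 3 groups had a median total of 24, against 21 for all 311 loci. chr16_32435 led them with 347, 196 and 182 counts in aFM A, B and C, against 3, 5 and 0 in DZ and 0, 2 and 6 in NY. In chr15_28256, too, aFM was high, with 105, 36 and 51 counts against 0, 1 and 0 in DZ and 0, 8 and 4 in NY. The counts of chr2_45228 were 78, 48 and 55 in aFM, 0, 2 and 6 in DZ and 20, 0 and 12 in NY. chr10_9650 rested on 1 library: DZ A held 189 of its 229 counts, DZ B 8 and DZ C 0. chr13_19579, present in aFM and NY, had 249, 214 and 238 counts in NY and a single count in aFM. The other leading loci of that set were chrX_85355, with 30, 30 and 20 counts in NY and 1 in aFM A, and chr19_41655, with 4, 1 and 9 in aFM and 1 in NY B. chr1_4143, absent from DZ, had 82, 47 and 64 counts in NY and 66, 136 and 81 in PLL, with 1 count in aFM. chr2_47088, absent from DZ too, had 108, 98 and 118 counts in NY, 1, 4 and 0 in PLL and 0, 1 and 2 in aFM. In chr8_74879, from the same set, PLL was high, with 31, 42 and 24 counts against 2, 1 and 0 in aFM and 1, 2 and 0 in NY. A count in every library of the groups present was found for chr11_12082, with 1 count in each aFM library, 20, 26 and 17 in NY and 9, 10 and 11 in PLL. It was also found for chr9_81875, absent from PLL, with 4, 3 and 4 counts in DZ, 28, 33 and 14 in aFM and 3, 2 and 5 in NY.

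The leading loci with counts in 2 groups were mostly unequal between them. Some lower ones were closer, such as chr1_4645 with 4, 2 and 4 counts in NY and 3, 2 and 1 in PLL, chosen after its values were seen. chr2_46174, chosen likewise, had 20 counts each in DZ and aFM, but all 20 of DZ lay in DZ B, against 5, 9 and 6 in aFM. Among 28 loci of DZ and aFM, chr12_17802 had 74, 50 and 51 counts in aFM and 0, 0 and 2 in DZ, and chr8_76410 had 58, 56 and 41 against 0, 2 and 1. chr7_73713 was different: it had 30, 26 and 35 counts in aFM, and 75 in DZ B with 0 in the other DZ libraries. Among 19 loci of aFM and PLL, chr8_75168 had 50, 91 and 38 counts in PLL and 0, 0 and 3 in aFM, and chr9_80602 had 24, 69 and 36 against 1, 1 and 3. chr15_29789 was the third of this set, with 10, 32 and 21 counts in PLL and 2, 0 and 1 in aFM. Among 14 loci of NY and PLL, chr13_20318 had 35, 53 and 41 counts in PLL and 0, 1 and 0 in NY, while chr18_39540 had 24, 40 and 21 in PLL and 7, 5 and 14 in NY. chr13_22735, the third of them, had 3, 19 and 6 counts in PLL and 1, 0 and 0 in NY. Of 10 loci in DZ and NY, chr11_12603 had 43, 43 and 72 counts in NY and 0, 1 and 0 in DZ. chr1_5947 had 31, 19 and 36 in NY and 8, 9 and 1 in DZ, and chr17_36159 had 22 counts in DZ A and 1 in NY B. In the smallest of these sets, 6 loci of DZ and PLL, chr5_61538 led with 3, 15 and 4 counts in PLL and 1 count in DZ C. chr8_74477 had 9, 8 and 2 in PLL and 1 in DZ A, while chr2_43454 had 11 in DZ C and 2, 2 and 3 in PLL.

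Replicates of a group differed in how often they shared these loci. In PLL, 88 of the 152 loci present had a count in all 3 libraries (57.9%), in aFM 108 of 208 (51.9%) and in NY 64 of 157 (40.8%). In DZ it was 23 of 164 (14.0%), and 68 of the 164 had a count in 1 DZ library. For the 887 other predicted loci, the share with a count in all 3 libraries was 74.2% in PLL, 90.1% in aFM, 83.8% in NY and 72.4% in DZ. DZ A held 58.0% of the scaled size of its group and PLL B 51.7% of that of PLL, and DZ A had the highest DZ count for 92 loci. A count in all 3 libraries of at least 1 group was found for 232 of the 311 loci. A single library held over 50% of the total in 102 loci, with PLL B the library in 31 of them, aFM A in 16 and DZ A in 15.

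**Figure D3:**
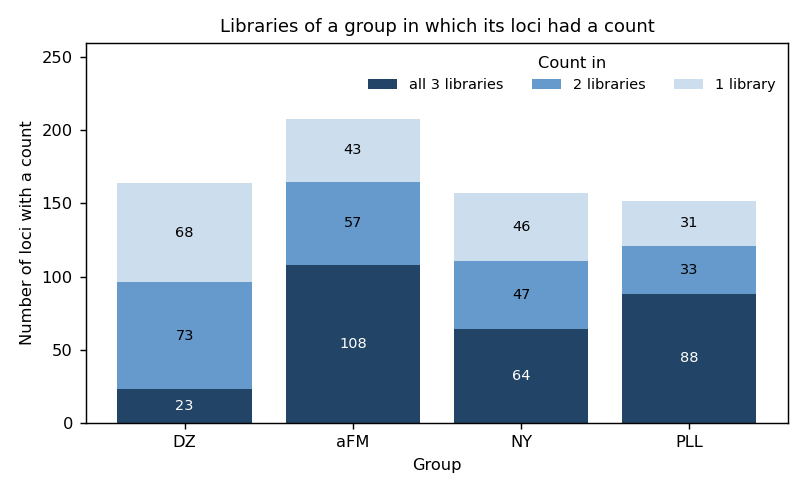
Number of the 311 loci with a count in each group (bar height, vertical axis in loci), split by whether 1, 2 or all 3 libraries of the group had a count. The darkest part, all 3 libraries, is 23 loci in DZ against 108 in aFM, 64 in NY and 88 in PLL.

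Absence can be read in a library that played no part in choosing it. Loci were chosen again without 1 library at a time, as those with at least 10 counts in the other 11 libraries and 0 in the other 2 libraries of its group. The left-out library was at 0 for 63.4% to 92.5% of the loci so chosen. Among all predicted loci with that total, it was at 0 for 14.2% to 32.9%, but these loci had more counts in general. No share for loci of like total count was computed, so these numbers do not test absence. The lowest shares belonged to the largest libraries of their groups, DZ A (147 of 232 loci), PLL B (159 of 233, or 68.2%) and aFM A (103 of 135, or 76.3%). When a locus was not at 0 there, the count was mostly small: the highest was 8 or less in 10 of the 12 left-out libraries. The exceptions were DZ A, where 23 loci had over 10 counts and the highest had 190, and DZ B, where 4 loci did.

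**Figure D4:**
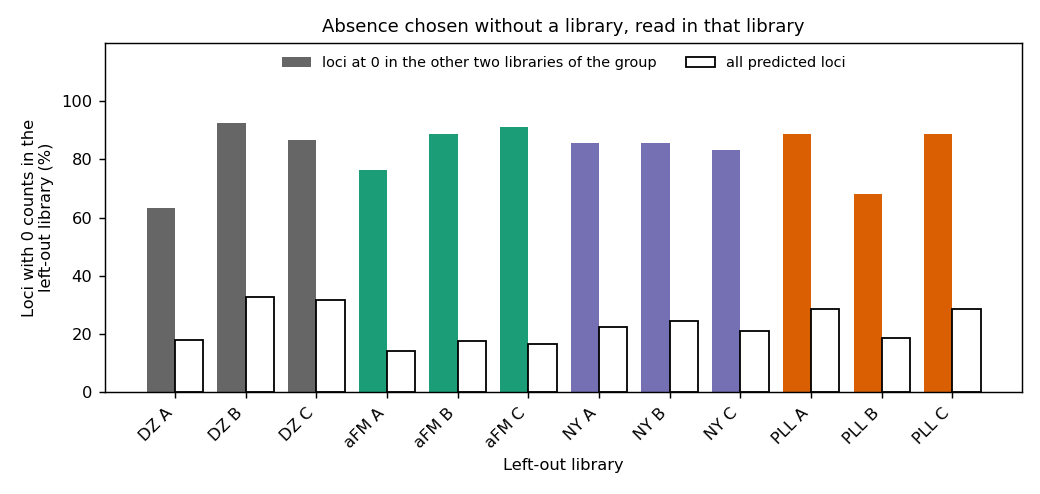
Share of loci (vertical axis, percent) with 0 counts in a left-out library, for loci at 0 in the other 2 libraries of its group (filled bars, coloured by group) and for all predicted loci (open bars). The filled bars run from 63.4% in DZ A to 92.5% in DZ B, and the open bars from 14.2% to 32.9%.

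Presence in 1 group was read in the same way, from 2 libraries with at least 10 counts together and 0 in the 9 libraries of the other groups. The third library had a count for 20 of 20, 23 of 24 and 24 of 28 loci in aFM, with A, B and C left out in turn. In PLL it had a count for 28 of 30, 19 of 19 and 29 of 34 loci, and in NY for 7 of 9, 7 of 7 and 5 of 6. No locus was chosen in this way with DZ A left out. With DZ B or DZ C left out, 1 was chosen each time, and it had 0 counts in the third library. At least 10 counts in 2 libraries make a count in the third likely by depth alone. No share for other loci chosen in this way was computed, so these numbers do not test whether a locus belongs to 1 group.

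Differences are given between groups in which a locus had counts. The rule used the sum of these counts and the absence from another group, not the difference between the groups compared. The fit covered all rows that passed a filter on low counts, 712 predicted loci and 141 annotated miRNAs, with edgeR's quasi-likelihood test and Benjamini-Hochberg adjustment over the 853 rows. Only 58 of the 311 loci passed the filter. A locus at 0 in a group of 3 passes only by being high elsewhere, and the same holds for a locus with a few counts in one of the groups compared. The numbers of loci, their adjusted p-values and their passes without a library are therefore descriptions of size against replicate spread, and they support no statement on the loci as a set. Over the 6 comparisons, 54 differences passed the threshold of 0.05, in 35 different loci. Of these 54, 39 passed whichever library was left out, and all 54 kept their sign under every alternative scaling, filter, test and left-out library tried in which they were fitted.

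Against DZ, NY was higher in 9 of 20 loci tested and lower in 0, where 14.4% of all rows were called (6.45% higher, 7.97% lower). Here 12 of the loci had an unadjusted p under 0.05, and DESeq2 called 9, all higher. chr4_55051 had a log2 fold change of 7.14 ± 0.60 (SE; edgeR adjusted p = 7.82e-05). For chr13_22045 the ratio of counts was 400 (95% counting interval 71.5 to 15800), with an edgeR adjusted p = 7.82e-05, and for chr1_2036 it was 124 (42.1 to 603; edgeR adjusted p = 8.96e-05). Of the 9, chr5_58887 and chr6_66026 did not pass without NY A, B or C, and chr4_54609 passed only with all libraries or without DZ A; they were named for this. Ratios with counting intervals pool the libraries of a group and are given where a group held 1 to 3 counts.

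The same loci led PLL against DZ, which shares its DZ libraries with the comparison above. PLL was higher in 7 of 15 loci tested and lower in 0 by edgeR, where 35.3% of all rows were called (17.2% higher, 18.1% lower). Of the loci, 9 had an unadjusted p under 0.05, and DESeq2 called 9, all higher. The ratio for chr13_22045 was 741 (132 to 29300; edgeR adjusted p = 8.42e-06) and that for chr1_2036 was 197 (66.9 to 960; edgeR adjusted p = 1.43e-05). chr4_55051 had a log2 fold change of 7.46 ± 0.61 (edgeR adjusted p = 1.43e-05). chr5_59384 and chr9_81497 passed as well, at 6.59 ± 0.78 and 6.77 ± 0.78, both with edgeR adjusted p = 0.000202. Scaling by annotated miRNAs gave 6 higher and 2 lower.

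In aFM against DZ, 5 loci were higher and 1 lower of 15 tested, where 11% of all rows were called (4.45% higher, 6.57% lower). chr16_32435 had a log2 fold change of 5.62 ± 1.02 (edgeR adjusted p = 0.0107) and was the one difference of the 6 that passed whichever library was left out. The ratio for chr12_17802 was 57.9 (15.8 to 481; edgeR adjusted p = 0.0147), which did not pass without aFM A, B or C (up to 0.0659). That for chr15_28256 was 127 (22.5 to 5040; edgeR adjusted p = 0.0152), which did not pass without aFM A or C (up to 0.0669). The lower locus, chr10_9650, rested on DZ A and was lost without any of 10 libraries, DZ A among them (adjusted p up to 0.269). The count of calls was 1 without aFM A or C and 2 without aFM B. Splits under other scalings were 5 higher and 0 lower with relative log expression factors and 4 and 0 with annotated miRNAs.

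NY and aFM differed in 10 of 16 loci tested, 6 higher and 4 lower in NY, where 25.0% of all rows were called (13.0% higher, 12% lower). The ratio of NY to aFM was 264 (46.8 to 10500; edgeR adjusted p = 9e-05) for chr1_4143, 958 (171 to 37900; edgeR adjusted p = 0.000189) for chr13_19579 and 148 (50.1 to 719; edgeR adjusted p = 0.000441) for chr2_47088. chr16_32435 was lower in NY, with a log2 fold change of -5.97 ± 1.02 (edgeR adjusted p = 0.00214). These 4 differences passed whichever library was left out. The other 3 lower calls did not: chr15_28256 and chr7_72885 were each lost without any of 5 libraries and chr9_81875 without any of 3. Without aFM B or NY A, 6 loci were higher and 1 was lower.

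PLL was higher than aFM in 11 and lower in 1 of 15 loci tested, where 36.5% of all rows were called (21.7% higher, 14.8% lower). The ratio for chr1_4143 was 690 (123 to 27300; edgeR adjusted p = 1.68e-05). chr5_59384 and chr9_81497 had log2 fold changes of 7.87 ± 0.81 and 8.05 ± 0.82, each with edgeR adjusted p = 8.97e-05. The lower locus was chr7_72885, named because it was the single one, with 32, 19 and 14 counts in aFM and 0, 0 and 1 in PLL (edgeR adjusted p = 0.0225); it did not pass without aFM A or B or PLL A or B. Scaling by annotated miRNAs gave 11 higher and 3 lower.

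Between PLL and NY, 7 loci were higher and 3 lower in PLL of 20 tested, where 25.3% of all rows were called (14.3% higher, 11% lower). chr19_40844 had 17, 39 and 13 counts in PLL and 1, 0 and 1 in NY, a ratio of 61.5 (16.4 to 518; edgeR adjusted p = 0.000508). The ratio for chr13_20318 was 230 (40.6 to 9160; edgeR adjusted p = 0.000697) and that for chr8_74879 was 57.7 (19.2 to 285; edgeR adjusted p = 0.00102). Among the lower calls, chr5_58887 was lost without any of 5 libraries and chr6_66026 without any of 6, and among the higher, chr1_4143 without any of 9. A single lower call was left without NY A, B or C or without PLL A or B. With a replicate block, 6 loci were higher and 1 was lower. The 3 loci shared by NY and PLL and absent from aFM were closer: chr13_22045, chr1_2036 and chr4_55051 did not pass, and the PLL to NY ratio of pooled counts was 1.85, 1.59 and 1.25. Its direction turned with annotated miRNA counts as the scale, to 0.78, 0.671 and 0.527. A difference that misses the threshold does not show equal levels. Scaling by annotated miRNAs gave 4 higher and 3 lower.

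Some loci had nearly the same counts under different names. In 3 pairs the counts were identical in all 12 libraries: chr12_18153 with chr5_63683, chr13_20719 with chr5_59678, and chr19_41728 with chr6_67070. The last pair had 6, 25 and 16 counts in PLL A, B and C and 0 elsewhere, and the second had 11, 4 and 19 in DZ, 2, 5 and 0 in aFM and 0, 4 and 1 in PLL. In each pair the chromosomes differ, and whether the same reads were counted under both names was not tested. A total of 49 pairs, chosen after the values were seen, had at least 85% of the larger total in common, the lower count of the pair being summed over libraries. Most were low: in 9 of the 49 the first-listed locus reached 50 counts. The share that low counts in 1 group would have in common by library size alone was not computed. Among the 49 pairs, chr9_81497 and chr5_59384 shared 87.4%, and chr5_62974 shared 85.7% with the former and 88.3% with the latter. Of the aFM loci, chr10_9543 and chr18_37768 shared 87.4%, and chr5_63224 and chr13_22723 shared 90.5%.

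The loci were spread over 20 chromosomes. Chromosome 2 held 30, and chromosomes 1, 4 and 5 held 24 each. As a share of the predicted loci with at least 10 counts, they ran from 15.6% on chromosome 19 (5 of 32; exact 95% binomial interval 5.28% to 32.8%) to 38.7% on chromosome X (12 of 31; 21.8% to 57.8%). These intervals overlap. On chromosomes 3 and 11 the shares were 17.0% and 17.5%, and chromosome Y had 0 of 3. The 39 loci of PLL alone lay on 20 chromosomes, 6 of them on chromosome 4, and the 34 of aFM alone on 15, with 4 each on chromosomes 5, 9 and 14.

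Absence from some group was set beside annotated miRNAs under the same rule. Of 282 annotated miRNA rows with at least 10 counts, 55 (19.5%) were at 0 in all libraries of some group. The groups lacking them differed in order from those lacking predicted loci: DZ lacked 30, NY 25, aFM 9 and PLL 7, while PLL lacked the most predicted loci. PLL had the fewest counts at predicted loci, and whether this bears on the order was not tested. No annotated row had counts in a single group, against 84 of the predicted loci. A low total leaves more room for a group at 0, so the shares are also given within ranges of total count. At totals of 100 to 499 counts, 29 of 320 predicted loci (9.06%) and 0 of 61 annotated rows were at 0 in some group, and at 500 or more it was 9 of 337 (2.67%) and 0 of 61. In the range from 20 to 49 it was 97 of 200 (48.5%) and 19 of 65 (29.2%). Loci share libraries and may share reads, and these shares were not tested.

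A total of exactly 10 was held by 27 loci; chr11_12061 had 5 counts in DZ A, 4 in aFM B and 1 in NY C, and chr11_14253 had 7 in PLL A and 3 in PLL B. Just outside, 25 loci had 9 counts and an absent group, such as chr10_8990 with 2, 2 and 5 counts in NY and chr10_8666 with 3, 0 and 6 in PLL. Another 86 predicted loci missed the rule by holding 1 count in their lowest group. The most abundant of them was chr10_7815, with 680, 601 and 372 counts in aFM, 11, 3 and 14 in DZ, 0, 2 and 1 in PLL and a single count in NY. chr3_52463 had 245, 160 and 108 counts in aFM, 2, 11 and 1 in DZ, 17, 9 and 20 in NY and 1 count in PLL.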

How the data were processed

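Small RNA of vesicles was measured in 12 libraries, 3 in each of 4 groups taken from the sample titles. The authors deposited raw whole-number counts per row and library. The build mm39 and the tools STAR, StringTie, FastQC and DESeq2 are named per the submitters' processing notes. Which program predicted the loci, and how reads were filtered, is not given in the sources used here, and both decide which loci the table holds. The rule and the lists were chosen with earlier results of these data known. Groups present, totals and shares were counted from raw counts. All 3509 rows, predicted loci included, entered filterByExpr (minimum count 10, minimum total 15); the 853 that passed were fitted with TMM and edgeR 4.0.16 (R 4.3.3), 1 term per group, two-sided; the common coefficient of variation was 54.1%. The SE is the log2 fold change divided by the square root of F. Named loci were the 3 highest totals in each set of groups with at least 5 loci (the highest in smaller sets), loci with a count in every library of their groups (up to 5), up to 3 of smallest adjusted p per comparison, pairs with identical counts and loci at the limits of the rule; other names were chosen after their values were seen. The fit was tried on data simulated for PLL against NY, with a common dispersion for all rows and changes placed in the more abundant rows. It recovered 10.4%, 51.1% and 100% of 2-, 4- and 16-fold changes and called 0.62% of unchanged rows. The simulation left out the unequal replicate spread of the groups, so it does not show how the fit performs on these loci. Same-letter replicates did not deviate together, so letters were not used as pairs. Alternatives covered the minimum total, the definition of absence, scaling, filter, DESeq2 1.42.0, a replicate block and each library left out.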

Additional observations from a re-analysis of the deposited data

How the results depend on the processing

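The number of loci depended on the minimum total. With a minimum of 20 counts it was 164 and with 50 it was 67. Loci absent from DZ, aFM, NY and PLL numbered 239, 183, 244 and 246 at a minimum of 5, 73, 49, 84 and 79 at 20, and 28, 21, 25 and 33 at 50. Allowing 1 count in an absent group gave 397 loci, merging identical rows 308, and asking for an expected count of at least 3, on the scale of all counts, gave 292. Leaving out each library in turn gave 292 to 332 loci, with 116 to 232 absent from DZ, 72 to 135 from aFM, 124 to 185 from NY and 131 to 233 from PLL; 232 was reached without DZ A. Counts in 1 group alone, an alternative added after seeing the data, ran from 0 to 3 in DZ, 20 to 38 in aFM, 6 to 11 in NY and 19 to 47 in PLL.

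Calls between groups present ran, over left-out libraries, from 1 to 9 in aFM against DZ, 6 to 12 in NY against DZ, 7 to 9 in PLL against DZ, 7 to 14 in NY against aFM, 12 to 18 in PLL against aFM and 7 to 13 in PLL against NY. Without the filter on low counts there were 12 in aFM against DZ, 12 in PLL against DZ and 19 in PLL against aFM. With a replicate block there were 3 in aFM against DZ, and the other counts stayed within 1.5 times. The letters do not pair the libraries: same-letter deviations correlated between -0.369 and 0.262, and in 8 of 36 combinations a library correlated best with its own letter. Scaling by annotated miRNAs moved the median of all rows tested from -0.25 to -1.97 in PLL against DZ, from -0.07 to -1.79 in PLL against aFM and from 0.024 to -1.06 in PLL against NY (log2). The limit set by 3 counts was highest in PLL, at 12.03 CPM. The causes of these shifts, and the part of depth in absence from PLL, were not tested.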
